A study of Arabidopsis thaliana with 6 samples.

Results

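The EDS1 family and its helper receptors carry immune signals inside plant cells, and their transcripts were followed here in closed flower buds of Arabidopsis thaliana. The 9 genes were taken by locus from 33037 rows of the deposited tables, and each was found in both the count and the FPKM table. They are EDS1, its tandem copy EDS1B, the partners PAD4 and SAG101, and the helper receptors ADR1, ADR1-L1, ADR1-L2, NRG1.1 and NRG1.2. RNA was sequenced from buds of naa50-1 mutants, which carry an allele of the amino-terminal acetyltransferase gene NAA50, and from buds of wild-type (WT) plants. Each genotype had 3 biological replicates, and the series as titled concerns NAA50 and the degeneration of the tapetum, which lines the anther and nourishes pollen. The labels used here give no accession background, plant age or position of the allele.

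Many intracellular immune receptors of plants carry a TIR domain, an enzyme that makes small nucleotide signals once a pathogen protein is sensed. EDS1 pairs with either PAD4 or SAG101, lipase-like proteins that act without lipase activity, and these pairs receive the signals. The EDS1-PAD4 pair then engages the ADR1 helpers, and the EDS1-SAG101 pair the NRG1 helpers. Both helper families are nucleotide-binding leucine-rich repeat receptors (NLRs) with an amino-terminal RPW8-type domain, and they act as calcium-permeable channels. The ADR1 arm is known mainly for transcriptional defence and salicylate production, and the NRG1 arm mainly for host cell death.

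The 6 libraries held between 19727584 and 20813563 counts. The targeted gene went against a simple loss of transcript: NAA50 (AT5G11340) averaged 2680 ± 295 CPM (counts scaled to library size) in the libraries labelled naa50-1 and 26.3 ± 2.39 CPM in WT libraries (SD, n = 3 each), a rise on the log2 scale of 6.67 (adjusted p = 6.5e-08, edgeR quasi-likelihood test), so directions below are those of the libraries labelled naa50-1. WT replicate 2 stood apart on the second principal component, at -38.1, against 20.7 for each of the other WT libraries. On the same component naa50-1 replicate 2 lay at -17.7, against 10.4 and 3.94 for the other naa50-1 libraries. All 15 tapetum markers and all 13 markers of mature pollen passed the filter on low counts, and both kinds of cell belong to closed buds. Of the pollen markers 12 fell in libraries labelled naa50-1, and their summed share of counts was 0.00537% to 0.00585%, against 0.103% to 0.163% in WT libraries, with ANX2 at 0 in each library labelled naa50-1. Of the tapetum markers 2 fell, EXL4 and GRP17. Summed shares of the 15 were 0.137% to 0.163% in libraries labelled naa50-1 and 0.164% to 0.261% in WT libraries. EXL4 and GRP17 had the highest mean CPM of the list in WT libraries (548 and 903), against 272 and 449 in libraries labelled naa50-1. The other 13 tapetum markers were not called. Over all 15 the median log2 fold change was 0.12, with 10 positive and 5 negative. Of 9 green-tissue markers 1 fell, LHCB6, and the summed shares were 1.79% to 2.02% in libraries labelled naa50-1 and 2.16% to 2.54% in WT libraries. Over all genes tested, 5.59% were called lower. The calls of 2 tapetum markers and 1 green-tissue marker are thus not read as results about those tissues. In such bulk samples a changed number of cells and a changed amount of RNA per cell cannot be told apart, and the part of these markers in the results below was not tested.

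Of the 9 genes, 7 rose in libraries labelled naa50-1 and none fell at an adjusted p of 0.05 (edgeR quasi-likelihood test, Benjamini-Hochberg adjustment over 21196 genes). EDS1, EDS1B, PAD4, SAG101, ADR1, ADR1-L1 and ADR1-L2 rose by 1.94-fold to 3.75-fold, and NRG1.1 and NRG1.2 did not pass the threshold. Among all genes tested 3.94% were called higher and 5.59% lower, 9.53% in all. No member had a negative fitted change, so none was lower at an unadjusted p of 0.05 either, and limma and DESeq2 also called none lower. The median log2 fold change of the 9 was 1.29, against -0.01 over all genes tested. The 9 genes were chosen with earlier results of these data known, so their contrasts with all genes are descriptions. The same 7 genes had all their libraries labelled naa50-1 above all their WT libraries, which held for 11.6% of all genes tested.

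EDS1 (AT3G48090) is the shared partner of both arms. It lies on chromosome 3 at 17755329 to 17758147, minus strand, in TAIR10 coordinates. Its level was 35.3, 41.8 and 28.8 FPKM in the libraries labelled naa50-1, against 11.7, 11.1 and 10.3 FPKM in WT libraries, where FPKM is the authors' fragment count scaled for gene length and library size. The lowest library labelled naa50-1 was far above the highest WT library. EDS1 rose 3.19-fold (95% interval 2.57 to 3.96, log2 fold change 1.67, SE 0.14, adjusted p = 3.78e-05, edgeR). Among 27396 genes with any count, its mean FPKM stood at percentile 87.4 in libraries labelled naa50-1 and at percentile 61.0 in WT libraries.

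EDS1B (AT3G48080, chromosome 3, 17752463 to 17755190, minus strand) is the tandem copy of EDS1, with 138 bases between them. The coding sequences were 84.0% identical over 1859 aligned positions, and the first 120 coding bases differ at 24 positions. These stretches are shown because counts of near-identical copies can be divided wrongly, with capitals at the bases that differ, 5′ to 3′ on the minus strand of TAIR10.1 (chr3:17757573-17757692 for EDS1 and chr3:17755026-17755145 for EDS1B).
EDS1: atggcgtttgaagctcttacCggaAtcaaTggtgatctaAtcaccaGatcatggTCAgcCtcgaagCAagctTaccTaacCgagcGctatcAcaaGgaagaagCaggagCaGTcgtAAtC
EDS1B: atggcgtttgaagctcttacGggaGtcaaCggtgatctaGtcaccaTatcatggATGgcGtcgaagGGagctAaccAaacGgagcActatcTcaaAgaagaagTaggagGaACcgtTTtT

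No exonic run of 100 bases of either gene recurs elsewhere in the genome, and of runs of 50 bases 0.977% of those of EDS1 and 0.947% of those of EDS1B do. EDS1B was the lowest of the 9 genes, with 81 to 143 counts in libraries labelled naa50-1 and 24 to 36 counts in WT libraries. It stood at 1.61, 2.62 and 1.53 FPKM in libraries labelled naa50-1, against 0.700, 0.616 and 0.474 FPKM in WT libraries. The genotypes did not overlap. Its rise was 3.19-fold with a wider interval than that of EDS1 (1.99 to 5.14, adjusted p = 0.0058, edgeR). Its log2 fold change was 1.68 in this fit and 0.85 with limma on log2(FPKM + 1), a scale that understates changes at such low levels. EDS1B took 4.39% to 5.95% of the pair's counts in libraries labelled naa50-1 and 4.42% to 5.70% in WT libraries, so the share ranges overlapped. Of its exon bases 19.5% also belong to AT3G48070 on the opposite strand. Since no strand setting is given, reads there may not be separated or may be left uncounted. That neighbour itself had a log2 fold change of 0.14 (adjusted p = 0.603, edgeR).

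PAD4 (AT3G52430, chromosome 3, 19431095 to 19434450, plus strand) binds EDS1 in the arm that promotes salicylate defence. It stood at 13.2, 22.2 and 13.1 FPKM in libraries labelled naa50-1, against 4.53, 3.50 and 4.85 FPKM in WT libraries. Replicate 2 was the highest library labelled naa50-1 and the lowest WT library, and the genotypes did not overlap. PAD4 had the largest fitted rise of the 9 genes, 3.75-fold (95% interval 2.65 to 5.31, adjusted p = 0.000329, edgeR). That rank did not hold without both libraries numbered 2, where the log2 fold change was 1.49 for PAD4 and 1.54 for EDS1.

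SAG101 (AT5G14930, chromosome 5, 4828499 to 4830982, plus strand) is the partner of EDS1 in the cell death arm and was named from leaf senescence. Its level was 7.58, 10.2 and 8.05 FPKM in libraries labelled naa50-1, against 3.32, 3.34 and 3.86 FPKM in WT libraries. The genotypes did not overlap. SAG101 rose 2.45-fold (95% interval 1.91 to 3.13, adjusted p = 0.000467, edgeR). Of 6 tested markers of senescence only SAG13 was called, with 25.8 ± 5.07 CPM in libraries labelled naa50-1 and 5.86 ± 6.19 CPM in WT libraries (SD, n = 3 each, adjusted p = 0.0429, edgeR). The other 5 tested markers were not called, and 3.94% of all genes tested were called higher. Fitted changes were positive for 5 of the 6, and negative for SEN1 (log2 fold change -0.27). The summed share of the senescence markers, SAG13 included, was 0.00864% to 0.0116% in libraries labelled naa50-1 and 0.00535% to 0.00835% in WT libraries. These ranges did not overlap but nearly met, and the part of this share in the rise of SAG101 was not tested. SAG12, the classical marker of leaf senescence, stayed under the filter with at most 32 counts in a library.

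**Figure D1:**
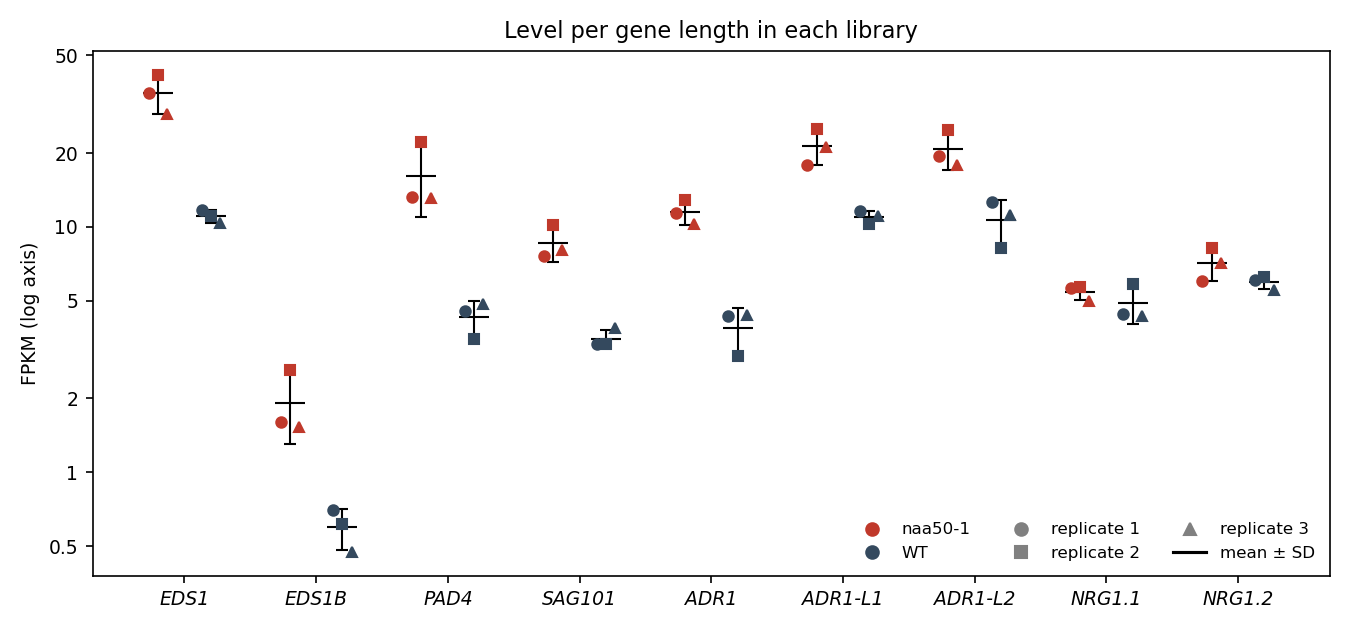
Level of each gene in FPKM (log axis) in each library, naa50-1 in red and WT in dark blue, with a marker shape for each replicate number and black bars at the mean ± SD of 3 libraries. For 7 genes the lowest naa50-1 library lies above the highest WT library, while the NRG1.1 and NRG1.2 libraries of the genotypes overlap.

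ADR1 (AT1G33560, chromosome 1, 12168768 to 12172119, plus strand), the founding member of its helper family, rose the most among the helpers. It stood at 11.4, 12.9 and 10.3 FPKM in libraries labelled naa50-1, against 4.33, 2.97 and 4.36 FPKM in WT libraries. The rise was 2.96-fold (95% interval 2.30 to 3.82, adjusted p = 0.000164, edgeR). ADR1-L1 (AT4G33300, chromosome 4, 16050456 to 16056526, minus strand) and ADR1-L2 (AT5G04720, chromosome 5, 1360589 to 1363907, plus strand) act redundantly with ADR1 in immunity. ADR1-L1 stood at 17.9, 25.2 and 21.2 FPKM in libraries labelled naa50-1, against 11.6, 10.2 and 11.1 FPKM in WT libraries. ADR1-L2 stood at 19.5, 24.9 and 17.9 FPKM in libraries labelled naa50-1, against 12.6, 8.24 and 11.1 FPKM in WT libraries. In all 3 ADR1 genes the genotypes did not overlap. ADR1-L1 rose 1.95-fold (95% interval 1.60 to 2.38, adjusted p = 0.000794, edgeR) and ADR1-L2 1.94-fold (1.49 to 2.53, adjusted p = 0.00474). Exons of other genes on the opposite strand cover 23.4% of the exon bases of ADR1-L1, so its level per length is less certain than that of the other helpers. The 3 genes covering them had at most 11 counts in any library. Those low counts do not show whether reads in the shared exons were counted, since the counter and strand setting are not stated. ADR1-L1 may thus be undercounted. Of the exonic runs of 100 bases of ADR1-L1, 1.35% recur elsewhere in the genome, and none of those of ADR1 or ADR1-L2 do.

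NRG1.1 (AT5G66900, chromosome 5, 26714723 to 26717958, minus strand) and NRG1.2 (AT5G66910, 26718130 to 26721377, same strand) lie in tandem, 171 bases apart, with coding sequences that were 84.1% identical. No run of 100 exonic bases of either recurs elsewhere in the genome, and 2.68% and 2.56% of their runs of 50 bases do. NRG1.1 stood at 5.62, 5.70 and 4.98 FPKM in libraries labelled naa50-1, against 4.42, 5.84 and 4.35 FPKM in WT libraries. The highest value of NRG1.1 was that of WT replicate 2, and the genotypes overlapped. NRG1.2 stood at 5.998, 8.20 and 7.13 FPKM in libraries labelled naa50-1, against 6.08, 6.24 and 5.54 FPKM in WT libraries. Here too the genotypes overlapped, with replicate 1 labelled naa50-1 below WT replicates 1 and 2.

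The fitted change was 1.11-fold for NRG1.1 (95% interval 0.873 to 1.41, adjusted p = 0.703, edgeR) and 1.19-fold for NRG1.2 (0.957 to 1.48, adjusted p = 0.396). These intervals still allow a rise of up to 1.48-fold. The upper bounds of both lay under the lowest bound of any of the 7 called genes, 1.49-fold for ADR1-L2. A comparison of single intervals is not a test of the difference, which was made on ratios within libraries. In the authors' deposited table the same 7 genes passed an adjusted p of 0.05, with log2 fold changes of 0.96 (ADR1-L2) to 1.91 (PAD4), where 4% of all genes with a value were called higher. NRG1.1 and NRG1.2 had adjusted p-values of 0.83 and 0.535 in the authors' deposited table. Those values come from the same 6 libraries, and the log2 fold change of EDS1 there was 1.68, as with DESeq2 here. They are thus not separate support.

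**Figure D2:**
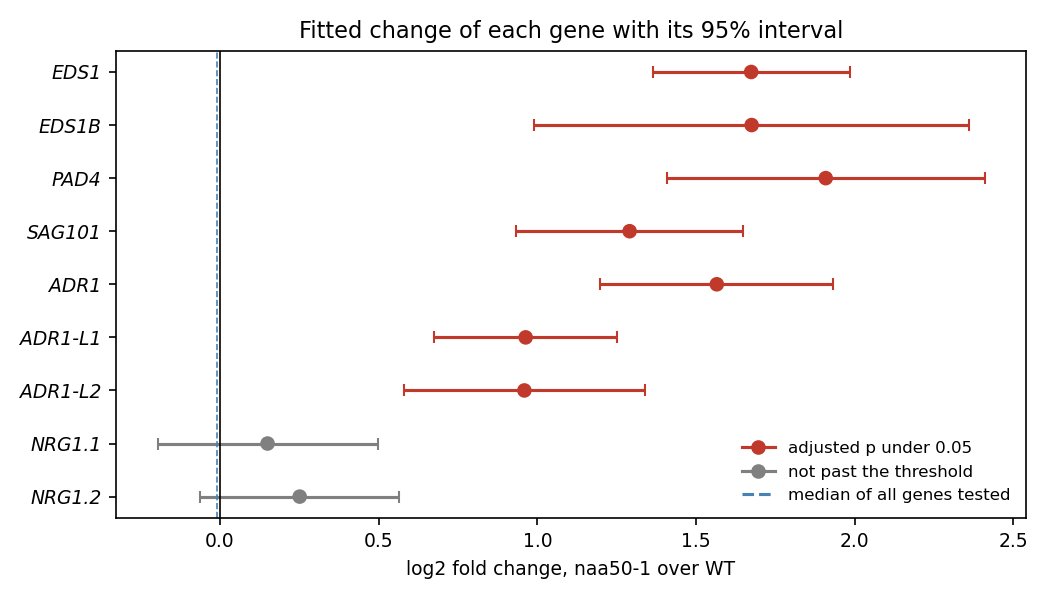
Fitted log2 fold change of each gene, naa50-1 over WT, with its 95% interval, from 3 libraries of each genotype. The 7 genes in red passed an adjusted p of 0.05, the NRG1 genes in grey did not and their intervals include 0, and the dashed line is the median of all genes tested at -0.01.

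The order of levels per length differed between the genotypes. In libraries labelled naa50-1, EDS1 led with 35.3 ± 6.47 FPKM (SD, n = 3), followed by ADR1-L1 with 21.4 ± 3.63, ADR1-L2 with 20.8 ± 3.66, PAD4 with 16.2 ± 5.23 and ADR1 with 11.5 ± 1.302 FPKM. Below them stood SAG101 with 8.61 ± 1.39, NRG1.2 with 7.11 ± 1.1, NRG1.1 with 5.43 ± 0.395 and EDS1B with 1.92 ± 0.609 FPKM. In this order the library ranges of ADR1-L1 and ADR1-L2, of ADR1-L2 and PAD4, and of SAG101 and NRG1.2 overlapped, and the other neighbours were apart. In WT libraries EDS1 (11.03 ± 0.680 FPKM), ADR1-L1 (10.97 ± 0.680) and ADR1-L2 (10.7 ± 2.22) had overlapping ranges at the top. NRG1.2 (5.95 ± 0.366 FPKM) and NRG1.1 (4.87 ± 0.842) came next, above PAD4 (4.29 ± 0.705), ADR1 (3.89 ± 0.790) and SAG101 (3.51 ± 0.303). Each of these 5 WT ranges overlapped the next, and EDS1B was lowest at 0.597 ± 0.114 FPKM. The NRG1 genes thus ranked 7 and 8 in libraries labelled naa50-1 and 4 and 5 in WT libraries.

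Ratios within a library do not depend on library scaling and set the members against each other. The FPKM of NRG1.1 plus NRG1.2 over that of ADR1 plus ADR1-L1 plus ADR1-L2 was 0.238, 0.221 and 0.245 in libraries labelled naa50-1, against 0.368, 0.563 and 0.372 in WT libraries. The genotypes did not overlap, and WT replicate 2 had the highest ratio. The difference in log2 ratio was -0.86 (exact two-sided permutation test, p = 0.1, the smallest that 3 against 3 libraries allow), and -0.66 without WT replicate 2. SAG101 over EDS1 was 0.215, 0.244 and 0.279 in libraries labelled naa50-1, against 0.284, 0.302 and 0.373 in WT libraries. These groups did not overlap but nearly met (difference -0.38 in log2, exact permutation p = 0.1). PAD4 over EDS1 was 0.374, 0.531 and 0.453 in libraries labelled naa50-1, against 0.387, 0.317 and 0.469 in WT libraries, with overlapping groups (difference 0.22, exact permutation p = 0.5). This difference was 0.07 without WT replicate 2, 0.09 without naa50-1 replicate 2, 0.35 without naa50-1 replicate 1 and 0.36 without WT replicate 3. A permutation p of 0.1 does not pass 0.05, so none of the 3 ratios was shown to differ by this test, and with Benjamini-Hochberg adjustment over the 3 ratios the exact permutation values were 0.15, 0.15 and 0.5.

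**Figure D3:**
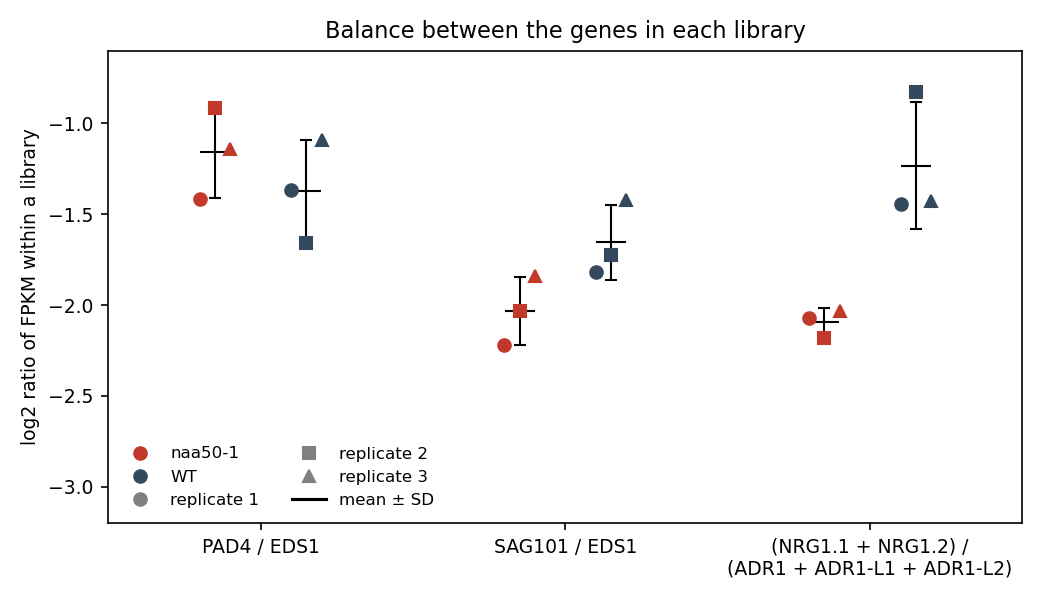
Log2 ratio of FPKM within each library for PAD4 over EDS1, SAG101 over EDS1, and the summed NRG1 genes over the summed ADR1 genes, naa50-1 in red and WT in dark blue, with black bars at the mean ± SD of 3 libraries. The helper ratio lies between -2.18 and -2.03 in naa50-1 libraries and between -1.44 and -0.83 in WT libraries.

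Replicate 2 labelled naa50-1 had the highest FPKM of the 3 naa50-1 libraries for 9 of 9 genes. Over all genes tested, the same library was the highest of its group in 33.2%. Among the lists described below, it was the highest by CPM for 15 of 16 salicylate and N-hydroxypipecolate output genes. The same held for 5 of 6 negative regulators and 6 of 8 coiled-coil genes, so it is not particular to the 9 genes. It was the highest for 6 of 16 TIR genes, 2 of 9 chaperone and turnover genes and 1 of 3 relatives of the helpers. Centred log2 CPM profiles over the 6 libraries were compared by their root-mean-square distance. The 3 closest pairs were ADR1-L1 with ADR1-L2 (0.168), EDS1 with EDS1B (0.170) and NRG1.1 with NRG1.2 (0.182), each pair being paralogs. Almost as close were SAG101 and ADR1-L1 (0.186), which are not paralogs. ADR1 was nearer to EDS1 (0.205), PAD4 (0.230) and SAG101 (0.232) than to its paralogs ADR1-L2 (0.313) and ADR1-L1 (0.358). PAD4 and NRG1.1 were the farthest apart, at 0.923. Outside the 9 genes, the nearest to EDS1 among 17990 genes with a mean of at least 50 counts were ABCC3, an ABC transporter (0.106), CNGC13, a putative cyclic nucleotide-gated channel (0.117), and the kinase gene AT5G25440 (0.125). ABCC3 stood at 262 ± 44.7 CPM in libraries labelled naa50-1 and at 82.6 ± 14.1 CPM in WT libraries (SD, n = 3 each). Nearest to PAD4 were AT1G55450, a methyltransferase-family gene (0.113), CYP81D8, a cytochrome P450 (0.136), and AT5G39020, a probable receptor-like kinase (0.156). Nearest to ADR1 were AT4G01700 (0.133), YLS3 (0.144) and CNGC13 (0.151). These distances are descriptions over the same 6 libraries, and all 8 genes were called higher.

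Windows of 250 bases before the annotated gene start were searched for TTGAC on both strands, the core of the W-box that WRKY factors bind. The core was found for EDS1, EDS1B and SAG101, 3 of the 7 genes that rose, and for NRG1.2. Of 20479 protein-coding genes tested, 44.4% had it in the same window, so its presence is near that background. A search of the same windows for CGCG, the core of the element that calmodulin-binding CAMTA factors recognise and its own reverse complement, found it for ADR1-L2 only, against 10.7% of those genes. The windows of EDS1B, SAG101, ADR1-L1 and NRG1.1 reach into exons of a neighbouring gene. Of those that do not, 3 windows of TAIR10.1 are shown, those of EDS1 with 1 core, of PAD4 with none, and of NRG1.2 with 2 and no call. Capitals mark TTGAC or its reverse complement, 5′ to 3′ on each gene's strand (chr3:17758148-17758397 minus, chr3:19430845-19431094 plus and chr5:26721378-26721627 minus).
EDS1: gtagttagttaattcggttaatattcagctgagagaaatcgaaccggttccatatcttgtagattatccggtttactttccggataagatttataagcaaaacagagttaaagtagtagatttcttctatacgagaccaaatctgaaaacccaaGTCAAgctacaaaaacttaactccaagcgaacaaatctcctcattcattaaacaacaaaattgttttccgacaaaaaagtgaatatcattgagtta
PAD4: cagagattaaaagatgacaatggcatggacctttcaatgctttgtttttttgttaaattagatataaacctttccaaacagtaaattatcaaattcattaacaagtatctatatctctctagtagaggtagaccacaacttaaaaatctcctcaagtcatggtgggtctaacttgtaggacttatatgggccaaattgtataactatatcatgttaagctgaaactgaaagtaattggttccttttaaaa
NRG1.2: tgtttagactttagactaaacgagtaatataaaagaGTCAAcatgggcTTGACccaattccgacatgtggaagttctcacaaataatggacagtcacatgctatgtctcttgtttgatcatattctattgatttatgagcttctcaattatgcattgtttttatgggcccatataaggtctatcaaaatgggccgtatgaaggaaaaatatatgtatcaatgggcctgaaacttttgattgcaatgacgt

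The core begins 96 bases before the start of EDS1 and 214 and 202 bases before that of NRG1.2. A match of these letters is not a binding site, and PAD4 rose without one in this window.

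The output of the pathway was described with 18 genes of salicylate and N-hydroxypipecolate (NHP) synthesis, perception and response. Of 16 tested, 10 rose and none fell (none at an unadjusted p of 0.05, edgeR, and none by DESeq2 or limma). The share of all genes tested that were called higher was 3.94%. The median log2 fold change of the 16 was 1.07, against -0.01 over all genes tested. This list, like those below, was chosen with earlier results of these data known, so its contrasts with all genes are descriptions. PR2, a glucanase secreted in defence, stood at 200.04 ± 69.4 CPM in libraries labelled naa50-1 and at 2.19 ± 1.04 CPM in WT libraries (SD, n = 3 each, adjusted p = 3.52e-06, edgeR). WRKY46, a defence transcription factor, stood at 44.3 ± 17.9 CPM in libraries labelled naa50-1 and at 2.09 ± 0.98 CPM in WT libraries. SARD1 and CBP60G, factors that activate salicylate synthesis genes, had log2 fold changes of 3.22 and 3.66, and PR5, a thaumatin-like protein, one of 2.41. ALD1 and FMO1, enzymes of NHP synthesis, stayed under the filter with at most 3 and 7 counts in a library. SARD4 of the same list was tested and not called (log2 fold change 0.43, adjusted p = 0.21, edgeR). The perception genes NPR1, NPR3 and NPR4 had log2 fold changes of 0.22, 0.20 and 0.13 and were not called (adjusted p = 0.61 to 0.682, edgeR).

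TIR receptors, coiled-coil receptors and relatives of the helpers were counted next, beside the 3.94% of all genes tested that were called higher. Of 16 tested TIR receptors and TIR proteins, 1 rose and none fell (10 and 0 at an unadjusted p of 0.05, edgeR, and none lower by DESeq2 or limma). Among all 21196 genes tested, 4078 had an unadjusted p under 0.05 in either direction (edgeR). The median log2 fold change of the 16 was 0.39, with 14 positive and 2 negative. For 9 of them all libraries labelled naa50-1 lay above all WT libraries, which held for 11.6% of all genes tested. A single call at the adjusted threshold among 16 genes is close to the share over all genes and is not read as a result about these receptors. The gene called was WRR4, a receptor for white rust resistance, at 22.6 ± 2.34 CPM in libraries labelled naa50-1 and 13.5 ± 0.774 CPM in WT libraries (SD, n = 3 each, adjusted p = 0.00418, edgeR). The count of TIR genes called higher was 5 with DESeq2, 4 without naa50-1 replicate 1 and 2 without WT replicate 2. Of 8 tested genes of coiled-coil receptors and their partners, 2 rose and none fell (3 and 0 at an unadjusted p of 0.05, edgeR, and none lower by DESeq2 or limma). NDR1, a membrane protein needed by several coiled-coil receptors, had a log2 fold change of 1.21 and ZAR1, a receptor that forms a calcium channel, 0.76. Without WT replicate 3 only 1 of these was called. Of 7 relatives of the helpers or homologues of RPW8, 3 passed the filter and 2 rose, namely HR4 and DAR5. HR4 stood at 54.6 ± 19.99 CPM in libraries labelled naa50-1 and at 9.58 ± 1.14 CPM in WT libraries (SD, n = 3 each, adjusted p = 9.44e-05, edgeR). Without naa50-1 replicate 2, WT replicate 1 or WT replicate 3, 1 of the relatives was called. ADR1-L3 was listed at 0 in each library, and NRG1.3, a truncated NRG1 gene, had at most 4 counts.

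Of 9 genes for NLR chaperones and turnover only SGT1A, a co-chaperone, rose (log2 fold change 0.51, adjusted p = 0.0139, edgeR), and no such gene was called without naa50-1 replicate 2 or without WT replicate 3. Over all genes tested, 3.94% were called higher and 5.59% lower. A single call among 9 genes is not read as a result about this list. Of 6 tested negative regulators of EDS1 signalling or of cell death, 3 rose and none fell (3 and 0 at an unadjusted p of 0.05, edgeR, and none lower by DESeq2 or limma). NUDT7, a nucleotide hydrolase that restrains EDS1 signalling, stood at 92.8 ± 21.5 CPM in libraries labelled naa50-1 and at 38.8 ± 3.02 CPM in WT libraries (SD, n = 3 each, adjusted p = 0.000489, edgeR). BAP1 (log2 fold change 2.88) and CAMTA3 (0.50) were also called, LSD1 (-0.01) and MPK4 (-0.03) were not, and 1 gene was called without WT replicate 2. Of the genes named outside the 9, NAA50, ZAR1, SARD1, SARD4, CAMTA3, AT4G01700, MPK4, LSD1, NPR1, NRG1.3 and LHCB6 overlap other annotated genes. Their counts are thus uncertain.

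**Figure D4:**
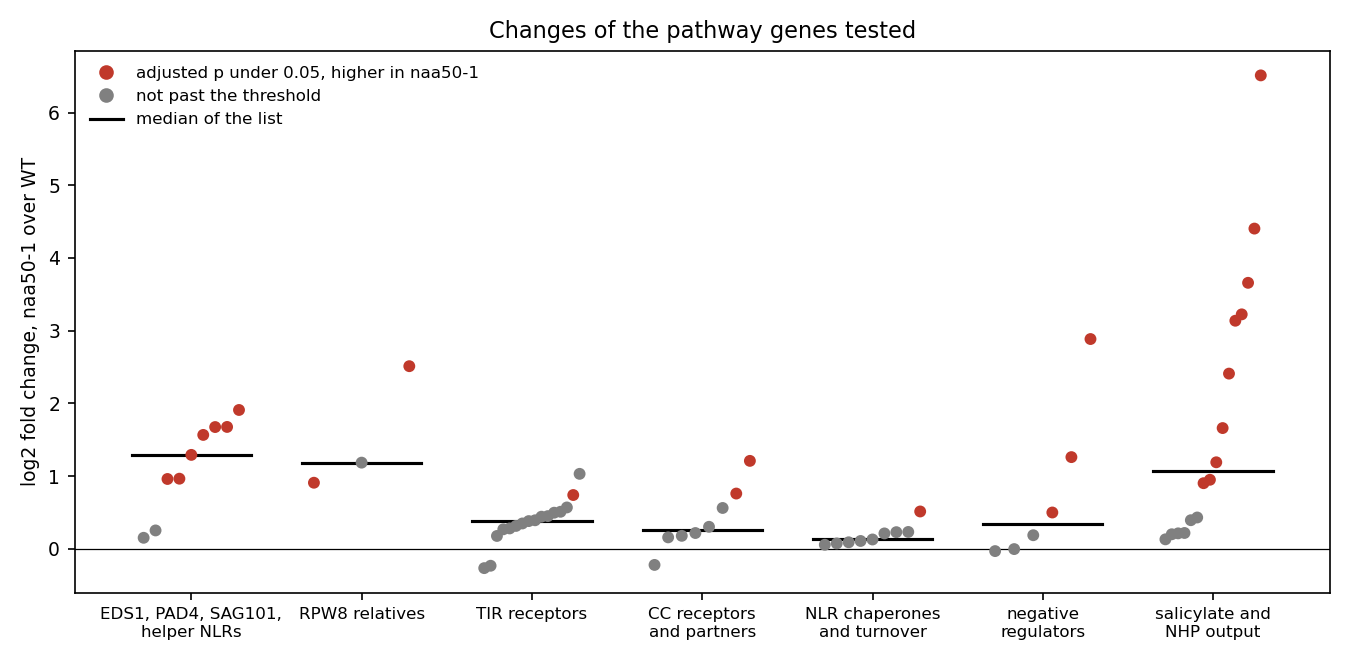
Fitted log2 fold change, naa50-1 over WT, of each tested gene of the EDS1 group and of 6 pathway lists, with black bars at the list medians. Red points passed an adjusted p of 0.05. The salicylate and NHP output list reaches 6.51 for PR2, and the TIR receptors have 1 called gene of 16.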

How the data were processed

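RNA from closed buds was sequenced in 3 naa50-1 and 3 WT libraries, grouped by sample titles. The submitters' processing notes name HISAT2 2.0.5 and the TAIR10 build. The counter, annotation release and strand setting were not stated in the sources used here. The authors deposited whole-number read counts per gene and FPKM values, which were proportional to count over gene length within each library. The authors' deposited table also gave log2 fold changes and adjusted p-values. Gene bounds equalled those of the RefSeq TAIR10.1 annotation for all 9 members.

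Counts were scaled by TMM, filtered by filterByExpr and tested with edgeR 4.0.16 (quasi-likelihood, genotype only, R 4.3.3), calling genes at a Benjamini-Hochberg adjusted p of 0.05. The test was checked on simulated counts. Replicate pairs were distinct libraries: the chi-square of their counts, divided by its degrees of freedom, was 12.9 to 28.2. Where samples came from separate plants is not stated beyond their being biological replicates. The 9 genes and all lists were chosen with earlier results of these data known. Named genes outside the 9 were those with the smallest p past the threshold in each list (up to 5 for the salicylate and NHP output, up to 3 otherwise, or the 1 smallest where none passed) and the 3 nearest profiles to EDS1, PAD4 and ADR1. Genes named for not being called, or for staying under the filter, were picked after their values were seen. Alternatives were other scalings and filters, DESeq2 1.42.0, limma 3.58.1 (voom, and log2(FPKM + 1) or log2(FPKM + 0.1)), a replicate block, paralogs summed, and libraries left out.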

Additional observations from a re-analysis of the deposited data

How the results depend on the processing

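The 7 members called higher remained called in 17 of 17 alternative fits each, and NRG1.1 and NRG1.2 in 0 of 17. When EDS1 was summed with EDS1B and NRG1.1 with NRG1.2, 6 of 7 features were called. Over all genes, 836 were called higher and 1185 lower, and 615 to 727 higher and 985 to 1213 lower with 1 library left out. DESeq2 gave 1062 and 1412. Same-numbered libraries of the genotypes did not deviate together (correlations of -0.000211, 0.0585 and 0.102), so the numbers were not taken as pairs. With the replicate number as a block, 789 genes were called higher, 1180 lower and 7 members higher, and the smallest p that 3 pairs allow for a ratio is 0.25.

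The count of TIR receptors called higher was 2 with no filter and 5 with DESeq2, and 1 to 4 with a library left out. The count of negative regulators was 1 with limma on log2(FPKM + 1), filtered or not, and 1 to 3 with a library left out. RPW8 relatives gave 1 with limma on unfiltered log2(FPKM + 1), and 1 to 2 with a library left out. Coiled-coil receptors gave 1 to 2 and NLR chaperones 0 to 1 with a library left out. Leaving out both libraries numbered 2, an alternative chosen after seeing the data, gave 1, 1 and 0 for RPW8 relatives, coiled-coil receptors and chaperones. The cause was not tested. EDS1B in WT, with at most 36 counts, limits its precision.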

Other observations

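Among the genes of the wider pathway, RPS2, a coiled-coil receptor, was listed at 0 counts in each of the 6 libraries, and 100% of its exon bases also belong to other annotated genes. BON1, a negative regulator of immune receptors, had at most 4 counts in a library and shares 94.4% of its exon bases with AT5G61910 on the same strand, which had up to 706 counts. Both were picked after their values were seen. For EDS1, PAD4, SAG101, ADR1, ADR1-L2, NRG1.1 and NRG1.2 no exon base is shared with another annotated gene.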
